A study of Mus musculus with 19 samples.

Results

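The growth hormone and insulin-like growth factor (IGF) axis was followed in mouse liver through 10 genes, taken by symbol: Ghr, Stat5a, Stat5b, Socs2, Cish, Igf1, Igfals, Igfbp1, Igfbp2 and Igfbp4. They are 10 of the 55836 genes listed in the count table, and all 10 were among the 13597 that passed the filter on low counts. The livers came from wild-type male C57BL/6 mice, 8 weeks old at the start. They were kept for 8 weeks on a control diet (CD) or on a MASH diet (MD) rich in fat, fructose and cholesterol. MASH stands for metabolic dysfunction-associated steatohepatitis, a fatty and inflamed state of the liver. Over the same 8 weeks the mice were gavaged daily with 2 mg of polyethylene microplastic particles (PE) in water with a little Tween 20, or with that vehicle alone (Veh). CD + Veh had 4 mice, and CD + PE, MD + Veh and MD + PE had 5 mice each, with 1 bulk RNA-seq library of whole liver per mouse. Only male mice of a single inbred strain were studied, and circulating hormone and protein levels were not analysed here.

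Growth hormone is released in pulses by the pituitary and binds its receptor on hepatocytes, where the receptor-bound kinase JAK2 activates the transcription factors STAT5A and STAT5B. Activated STAT5 drives transcription of Igf1 and Igfals and of the feedback inhibitors Socs2 and Cish. The liver is the main source of circulating IGF-1, which travels in the blood bound to IGF binding proteins, and in the largest complexes also to the acid-labile subunit encoded by Igfals. In rodents the pulse pattern differs between the sexes and sets sex-biased expression of many liver genes, STAT5B being the form on which this mostly depends.

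The libraries held 10398820 to 15456729 assigned counts, and the PE libraries were shallower (10398820 to 12757617) than the vehicle libraries (13406037 to 15456729). Levels are given as CPM, the counts of a gene relative to the library total, scaled by edgeR's TMM method. They are not divided by gene length and are compared between mice but not between genes. Changes are log2 fold changes with their standard errors (SE) from edgeR's quasi-likelihood test over all 19 libraries, with p adjusted by Benjamini-Hochberg over all genes tested. Calls required an adjusted p under 0.05 together with a log2 fold change of 0.38 or more in either direction. Vehicle libraries carry the numbers 39 to 47 and PE libraries 48 to 57, so the order of the libraries cannot be told apart from PE. Earlier results of these data, not shown here, led to a further division between library numbers 45 and 46, which the labels do not give. It puts MD + Veh replicates 4 and 5 on the side of all PE libraries. In depth these 2 libraries (13406037 and 14217720 counts) stood with the vehicle libraries. What lies behind the division was not tested. Hepatocyte markers were abundant in every library, with a summed level of the 7 markers between 46822 and 92922 CPM. In bulk tissue, fewer cells of a type and less RNA per cell cannot be told apart.

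Promoter sequence from RefSeq (300 bases around each start in a table built on GRCm38.p6, placed on GRCm39 by exact unique match) was found for 9 of the 10 genes, in 15 windows. Socs2 had no window in that table. The stretches shown are those that hold the palindromic STAT motif TTCNNNGAA, which reads the same on both strands, or the motif CAAAACA on either strand, the letters of the insulin-responsive FOXO element for which the Igfbp1 promoter is known. Motif letters are in capitals and all stretches lie on the plus strand.
Cish, chr9:107173758-107173881, from base -100 to base 24 relative to the start: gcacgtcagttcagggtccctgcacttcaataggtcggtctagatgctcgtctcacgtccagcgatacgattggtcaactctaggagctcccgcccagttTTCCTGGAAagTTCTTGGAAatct
Igfals, start 1, chr17:25096568-25096667, from base -250 to base -151: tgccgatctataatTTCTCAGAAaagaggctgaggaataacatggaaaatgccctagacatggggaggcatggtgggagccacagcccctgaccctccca
Igfals, start 2, chr17:25097105-25097204, from base -100 to base -1: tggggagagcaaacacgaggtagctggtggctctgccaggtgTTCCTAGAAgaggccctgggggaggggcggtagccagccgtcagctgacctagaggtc
Igfbp1, chr11:7147637-7147786, from base -150 to base -1: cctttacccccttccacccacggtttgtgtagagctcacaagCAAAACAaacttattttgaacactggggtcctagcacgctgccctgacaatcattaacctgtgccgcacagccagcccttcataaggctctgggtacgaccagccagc
The STAT motif lay in 3 of the 15 windows, 1 of Cish and 2 of Igfals, against 8.30% of 32851 RefSeq windows of the same length. The Cish window held 2 matches, and 0.457% of all windows held at least 2, while the stricter form TTCCNGGAA, which is contained in TTCNNNGAA, lay in 1.15% of all windows and, among the members, in that of Cish. CAAAACA lay in 1 of the 15 windows, that of Igfbp1, against 6.28% of all windows.

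**Figure D1:**
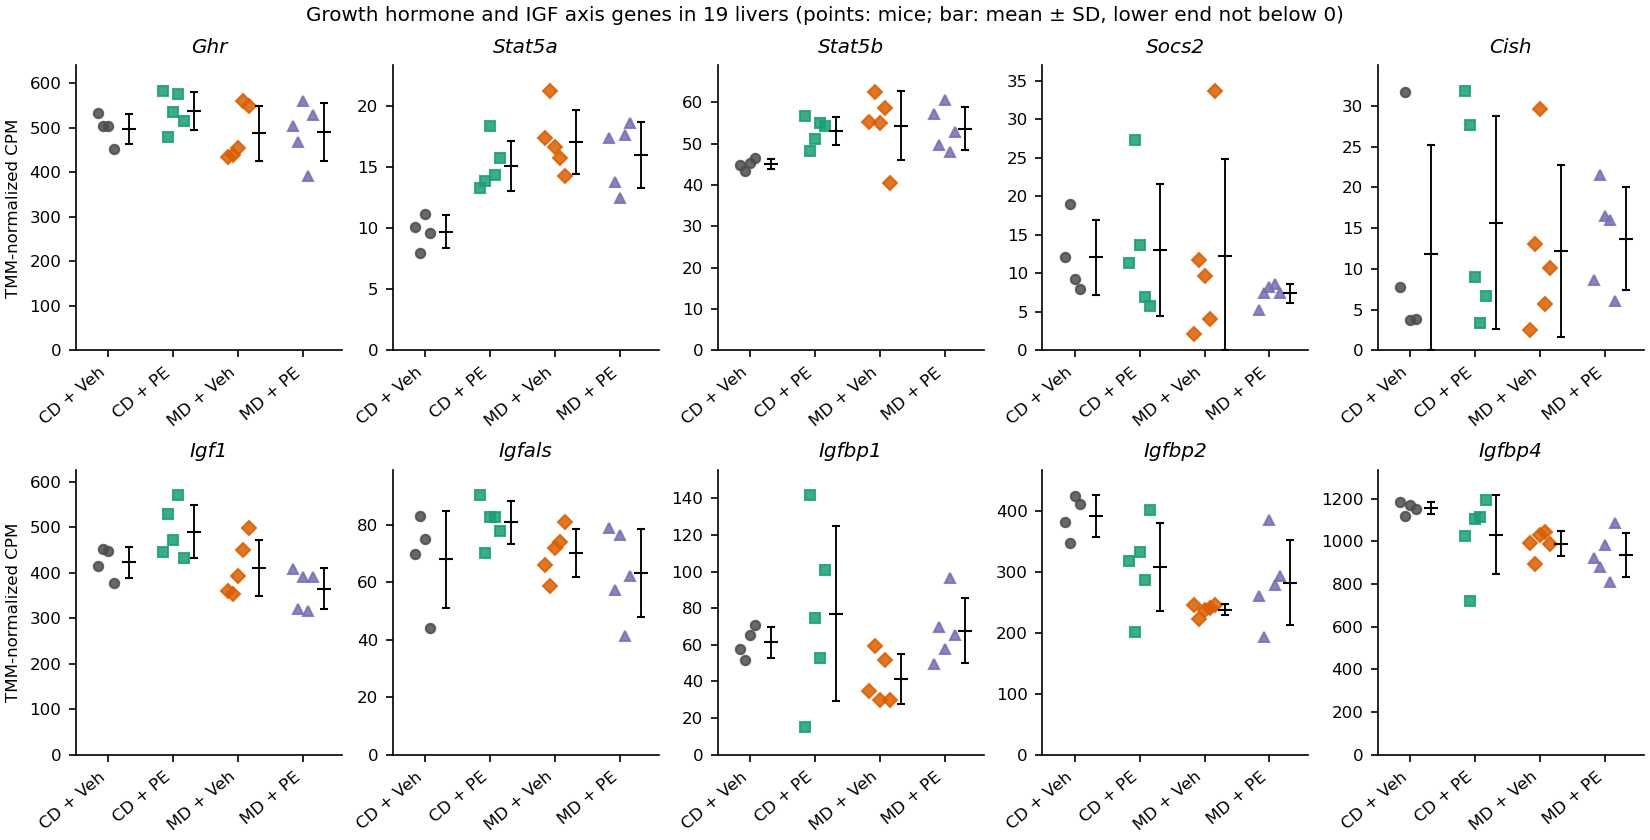
Level of each of the 10 genes in CPM (y axis, linear from 0) in the 4 groups (x axis), with 1 point per mouse and the group mean ± SD beside the points. Stat5a was lowest in the 4 CD + Veh livers, Igfbp2 lay in a narrow band in MD + Veh, and Socs2 and Cish spread widely within groups.

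The receptor and its transcription factors were examined first. Ghr, which encodes the growth hormone receptor, lies at chr15:3347235-3613024 on the minus strand (GRCm39, as all positions of genes here). Its level was 532, 503, 503 and 451 CPM in CD + Veh and 582, 479, 535, 576 and 516 CPM in CD + PE. It was 434, 439, 455, 560.0 and 548 CPM in MD + Veh and 504, 467, 559, 392 and 529 CPM in MD + PE. All 4 groups overlapped, and within MD + Veh the higher values were those of replicates 4 and 5, which lie beyond the division of library numbers. The log2 change of Ghr with PE was 0.11 (95% interval -0.10 to 0.33) in CD and 0.01 (-0.20 to 0.21) in MD. No comparison called Ghr, and both intervals lie within the fold needed for a call.

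Stat5a, on chr11:100750177-100776065 (plus strand), encodes the STAT5 form that is also central to prolactin signalling. Its level was 10.1, 7.95, 11.2 and 9.63 CPM in CD + Veh and 13.3, 13.9, 18.4, 14.4 and 15.8 CPM in CD + PE. In MD it was 17.4, 21.2, 16.7, 15.8 and 14.3 CPM with vehicle and 17.4, 13.8, 12.5, 17.6 and 18.7 CPM with PE. Every liver of the other groups stood above all 4 CD + Veh livers, while the other groups overlapped among themselves. Stat5a rose in CD + PE against CD + Veh by 0.64 on the log2 scale (SE 0.142, adjusted p = 0.0160, edgeR), or 1.55-fold. It rose in MD + Veh against CD + Veh by 0.81 (SE 0.140, adjusted p = 0.000658, edgeR), or 1.76-fold, and these comparisons share the CD + Veh libraries. In MD + PE the level differed little from that in MD + Veh (log2 change -0.10, 95% interval -0.37 to 0.18) or in CD + PE (0.08, -0.19 to 0.36). The change with PE was smaller in MD than in CD by 0.73 on the log2 scale, which had an unadjusted p of 0.00116 and did not pass adjustment (adjusted p = 0.216, edgeR). Stat5a was the only member called in CD + PE, where 2.92% of all genes tested were called.

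Stat5b, the STAT5 form on which growth hormone action in liver mainly rests, lies head to head with Stat5a on chr11:100671556-100741589 (minus strand), with 8587 bases between the genes. Its level was 44.8, 43.5, 45.3 and 46.5 CPM in CD + Veh and 56.6, 48.2, 51.03, 55.03 and 54.3 CPM in CD + PE. It was 55.3, 62.5, 54.9, 58.6 and 40.5 CPM in MD + Veh and 57.1, 49.8, 60.6, 47.9 and 52.7 CPM in MD + PE. All CD + PE livers lay above all CD + Veh livers, and in MD + Veh 4 of 5 did. The fitted change was 0.24 (SE 0.0997, adjusted p = 0.212, edgeR) in CD + PE and 0.27 (SE 0.0994, adjusted p = 0.0747, edgeR) in MD + Veh, neither of them called. Stat5a and Stat5b are close relatives, and 9.79% of the 31-base words of Stat5a transcripts and 10.9% of those of Stat5b occur in the other gene. Of words of 150 bases, the read length, 1.79% and 1.58% were shared, so that part of the reads could be assigned to either gene. Stat3 overlaps Stat5a on the opposite strand, as noncoding genes do Socs2, Cish, Igf1 and Igfals, and the libraries were stranded. Igfals is also overlapped on its own strand by the noncoding gene Gm64491 of GENCODE vM39. Its reads may be divided uncertainly if the annotation used by the authors also held that gene.

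Other properties of the livers also differed between groups, though not all of them followed Stat5a. A clock score, the mean log2 CPM of 5 circadian clock genes that peak with Bmal1 minus that of 10 genes that peak with Dbp and the Per genes, ranged from -3.88 to -2.56 in CD + Veh and from -2.48 to 0.92 in CD + PE. It ranged from -1.67 to 0.20 in MD + Veh and from -1.54 to 0.19 in MD + PE, so CD + Veh did not overlap any other group. With the clock score as a covariate the log2 change of Stat5a was 0.56 in CD + PE (adjusted p = 0.113, edgeR) and 0.70 in MD + Veh (adjusted p = 0.0860, edgeR), and neither was called. The SE was 0.179 and 0.214 in this fit, beside 0.142 and 0.140 without the score. As the CD + Veh scores lay apart, such a fit cannot cleanly separate the score from a comparison with CD + Veh, for this or any other gene. With the division of library numbers as a covariate the change was 0.93 (adjusted p = 0.0816, edgeR) in CD + PE, no longer called, and 0.92 (adjusted p = 0.000527, edgeR) in MD + Veh. This covariate rests on the MD + Veh libraries alone, since no other group has libraries on both sides. Without CD + Veh replicate 2 the CD + PE change had an adjusted p of 0.0586, and without CD + PE replicate 3 one of 0.0510 (edgeR). The Stat5a call in MD + Veh held in all 19 fits that left out a library. Markers of other cells also moved with MD + Veh, where 7 of 7 skeletal muscle markers were called higher, with sums of 1.93 to 2768 CPM beside 0.435 to 32.5 CPM in CD + Veh. In MD + Veh 1 of 9 stellate cell markers, 2 of 6 markers of lipid-associated macrophages and 0 of 7 Kupffer cell markers were called higher, with 1 macrophage marker called lower. In CD + PE none of these 4 lists had a called gene, but some sums ranged widely. Skeletal muscle markers reached 353 CPM there (median 2.03), beside at most 32.5 CPM in CD + Veh. Kupffer cell markers reached 626 CPM (median 106), beside at most 151 CPM in CD + Veh (median 149). In MD + PE, with Stat5a at 12.5 to 18.7 CPM, skeletal muscle markers summed to only 0.481 to 1.87 CPM. Kupffer cell markers summed to 141 to 269 CPM there. The part of these cells, of the clock genes and of library order in the Stat5a differences was not tested further.

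**Figure D2:**
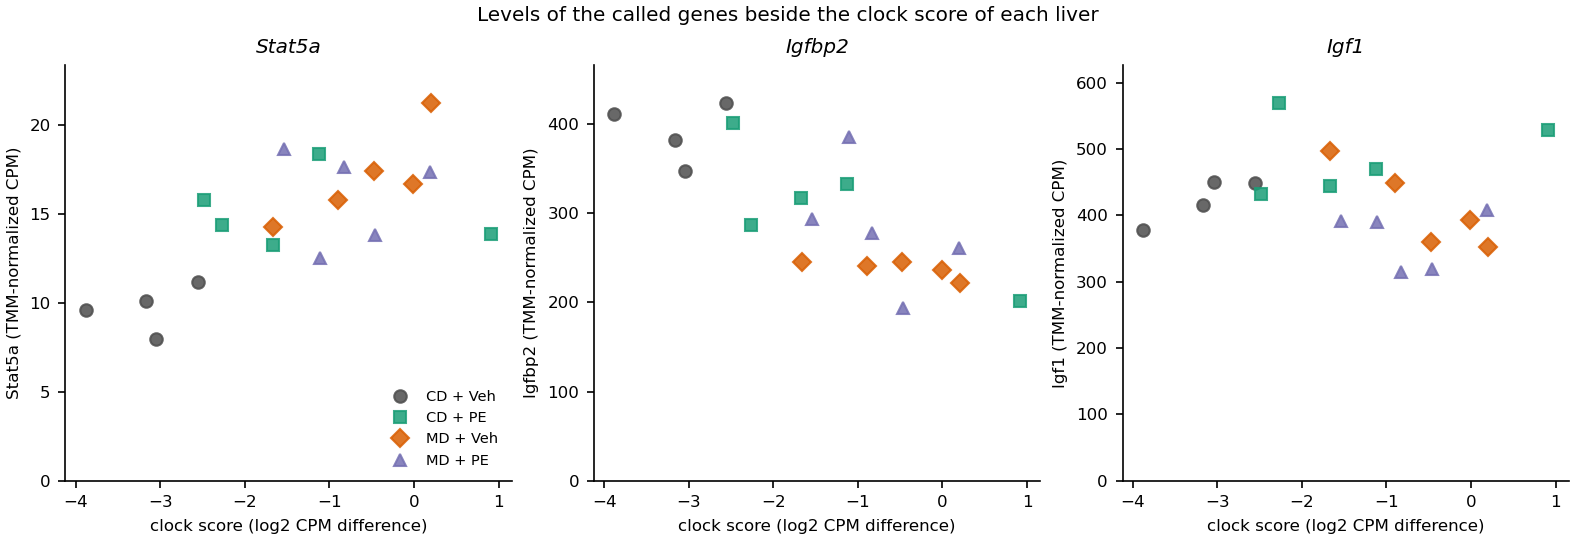
Levels of the 3 members called in any comparison, Stat5a, Igfbp2 and Igf1 (y axis, CPM, linear from 0), against the clock score of each liver (x axis, log2 CPM difference), with 1 point per mouse and a symbol per group. The 4 CD + Veh livers hold the lowest clock scores, from -3.88 to -2.56, together with the lowest Stat5a levels.

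The feedback inhibitors were next. Socs2 (chr10:95219523-95253929, minus strand) encodes a suppressor of cytokine signalling that restrains growth hormone receptor signalling, and Cish (chr9:107173225-107179983, plus strand) encodes a related SH2 protein induced by STAT5. Socs2 was at 12.1, 18.98, 9.26 and 8.02 CPM in CD + Veh, at 11.4, 27.3, 13.7, 6.93 and 5.83 CPM in CD + PE, at 2.15, 11.8, 9.68, 4.02 and 33.7 CPM in MD + Veh and at 5.28, 7.41, 8.26, 8.58 and 7.45 CPM in MD + PE. Cish was at 7.84, 31.7, 3.76 and 3.84 CPM in CD + Veh, at 31.8, 27.6, 9.01, 3.31 and 6.62 CPM in CD + PE, at 2.54, 13.1, 29.6, 5.65 and 10.1 CPM in MD + Veh and at 8.69, 21.5, 16.4, 15.9986 and 6.02 CPM in MD + PE. Both genes thus differed more between mice of a group than between groups, and all groups overlapped. Over all libraries the highest level was 15.6 times the lowest for Socs2 and 12.5 times for Cish. The within-group SD of log2 CPM was 1.22 for Cish and 0.93 for Socs2, larger than that of 98.5% and 96.8% of all genes tested, whose median was 0.22. These values rest on 33 to 442 counts per library for Cish and 34 to 436 for Socs2.

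With this spread the groups could not be separated. The largest fitted change of Socs2 among the pairwise comparisons was -0.82 in MD + PE against CD + PE (SE 0.540, 95% interval -1.95 to 0.31, adjusted p = 0.405, edgeR). In MD + PE against MD + Veh it was -0.72 (-1.84 to 0.40), with MD + PE the narrowest group (7.40 ± 1.29 CPM, SD, n = 5) beside MD + Veh (12.3 ± 12.6 CPM, SD, n = 5). For Cish the change was 0.43 (-1.08 to 1.94) in CD + PE against CD + Veh, an interval that spans both directions.

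Socs2 and Cish nevertheless varied together between mice of the same group. After group means were removed, log2 CPM correlated with Pearson's r = 0.644 over 19 mice (permutation within groups, two-sided, p = 0.0106, adjusted p = 0.0212 over 6 pairs) and Spearman's rho = 0.698 (p = 0.00532, adjusted p = 0.0182). Without the mice farthest from the median of Socs2 (MD + Veh replicates 1 and 5) r was 0.747. CD + Veh replicate 2, with the highest levels of its group in both genes, and MD + Veh replicate 1, with the lowest of all mice in both, showed this joint variation, and leaving out either raised the adjusted p to 0.0667 or 0.0771. No correlation of either inhibitor with Igf1 passed the test: r was 0.328 for Socs2 (p = 0.288, adjusted p = 0.433, rho = 0.086, permutation) and -0.087 without its farthest 2 mice, and -0.101 for Cish (p = 0.703, rho = -0.163, permutation) and -0.415 without its farthest 2.

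**Figure D3:**
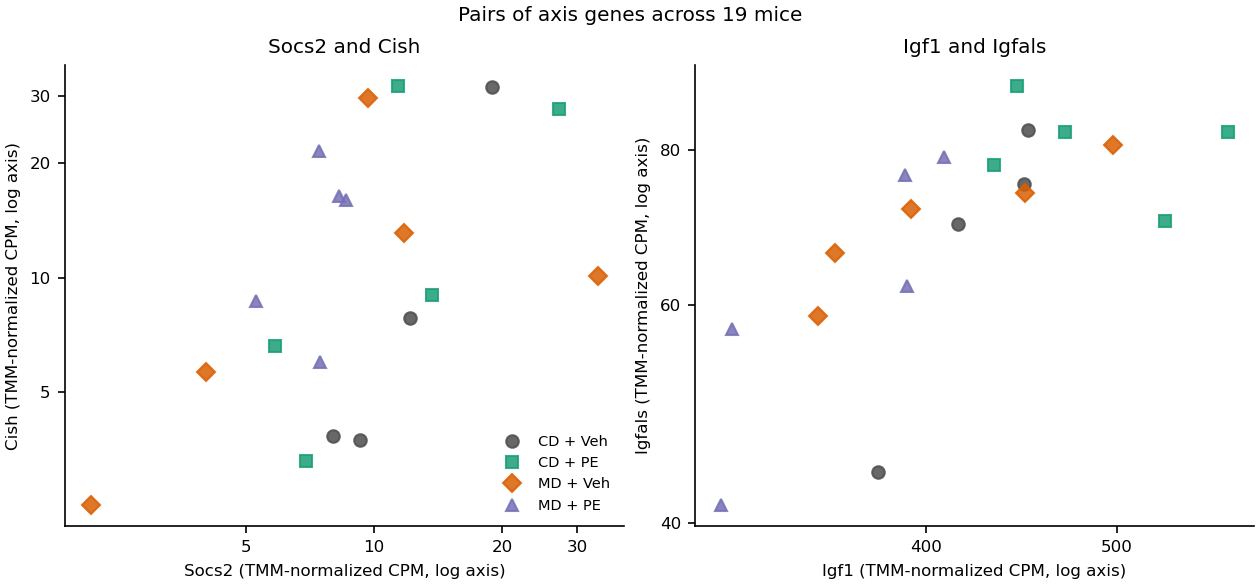
Cish against Socs2 and Igfals against Igf1 in each of 19 livers (all axes in CPM on log scales), with a symbol per group. Socs2 and Cish rise together over more than a 10-fold range and Igf1 and Igfals over a narrower range, while mice of all 4 groups are mixed along the Socs2 axis.

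The secreted ligand and its carrier were compared in the same way. Igf1 (chr10:87693642-87772904, plus strand) was at 415, 451, 448 and 378 CPM in CD + Veh and at 445, 529, 470.5, 569 and 433 CPM in CD + PE. It was at 359.6, 352, 393, 449 and 498 CPM in MD + Veh and at 409, 319, 390.4, 315 and 391 CPM in MD + PE. Every CD + PE liver stood above every MD + PE liver, and the other pairs of groups compared overlapped. Igf1 was lower in MD + PE than in CD + PE by a log2 change of -0.42 (SE 0.108, adjusted p = 0.0217, edgeR), to 0.745 of its level, from 489 ± 58.1 to 365 ± 44.4 CPM (SD, n = 5 each). It was the only member called in this comparison, where 4.61% of all genes tested were called and 6.18% had groups that did not overlap. All libraries of this comparison lie on the same side of the division between library numbers 45 and 46.

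The PE changes of Igf1 in the diets had opposite signs, and neither was called. The change was 0.21 (95% interval -0.03 to 0.45) with PE in CD, -0.17 (-0.40 to 0.06) with PE in MD and -0.04 (-0.28 to 0.19) with MD under vehicle. The difference between the PE changes of the diets was -0.38 (SE 0.157), with an unadjusted p of 0.0260 and an adjusted p of 0.508 (edgeR). With the clock score as a covariate the change in MD + PE against CD + PE was -0.42 (adjusted p = 0.0332, edgeR). Without CD + PE replicate 4, MD + PE replicate 2 or MD + PE replicate 4 it was -0.36, -0.38 or -0.37, with adjusted p = 0.0643, 0.0602 and 0.0660 (edgeR), and the call was lost without any of these livers. Beside Igf1, 3 of the 7 hepatocyte markers (Alb, Apoa1 and Ttr) were called lower in MD + PE than in CD + PE and none higher. The summed hepatocyte markers ranged from 46822 to 63288 CPM in MD + PE and from 65170 to 92922 CPM in CD + PE. Most of these sums was Alb, with means of 36854 and 56593 CPM. All 7 markers were fitted lower, but Hnf4a, at 484 ± 72.6 and 512 ± 34.0 CPM (SD, n = 5 each), was not called. At the same time 2 of 6 markers of lipid-associated macrophages and 1 of 9 stellate cell markers were called higher. The macrophage markers summed to 22.7 to 141 CPM in MD + PE and 26.2 to 45.4 CPM in CD + PE, and the stellate cell markers to 258 to 591 CPM and 296 to 385 CPM. The part of these markers in the Igf1 difference was not tested.

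Igfals (chr17:25084971-25100984, plus strand), which encodes the acid-labile subunit that lengthens the life of IGF-1 in blood, was at 69.7, 83.1, 75.1 and 43.98 CPM in CD + Veh and at 90.2, 70.2, 82.8, 82.7 and 77.9 CPM in CD + PE. It was at 66.0, 58.8, 71.7, 73.9 and 80.8 CPM in MD + Veh and at 79.0, 57.3, 76.4, 41.3 and 62.1 CPM in MD + PE. The groups overlapped in all comparisons, with the lowest livers in CD + Veh and MD + PE. In MD + PE against CD + PE the fitted change was -0.35 (SE 0.163), with an unadjusted p of 0.0431 and an adjusted p of 0.213 (edgeR). Between mice of a group Igfals varied with Igf1 (r = 0.626, permutation within groups, p = 0.00303, adjusted p = 0.0182; rho = 0.640, adjusted p = 0.0182; r = 0.656 without the 2 mice farthest from the median of Igf1). Ghr varied with Igf1 as well (r = 0.679, permutation p = 0.00738, adjusted p = 0.0212; rho = 0.677, adjusted p = 0.0248; r = 0.602 without the farthest 2). With the division of library numbers removed together with the group means, r of Ghr and Igf1 was 0.516 (adjusted p = 0.169, permutation) and no longer passed. In MD + Veh, replicates 4 and 5 were the highest for Igf1, Igfals and Ghr alike. Their TMM factors, which divide all levels of a library, were the lowest of the group, at 0.965 and 0.911. MD + PE replicate 4, with the highest factor (1.143), was the lowest of its group for the same genes. CD + PE replicate 2 (1.053) was lowest of its group for Ghr and Igfals but not Igf1, and CD + Veh replicate 1 (1.046) was highest of its group for Ghr. The part of these shared factors in the correlations was not tested.

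Of the IGF binding proteins, which hold IGFs in the circulation and in tissue and limit their access to the receptor, Igfbp1 (chr11:7147651-7152546, plus strand) is known as a gene that insulin represses in liver. It was at 57.5, 51.9, 65.2 and 70.8 CPM in CD + Veh and at 15.03, 142, 74.5, 52.9 and 101 CPM in CD + PE. It was at 34.9, 59.3, 29.7, 51.7 and 30.05 CPM in MD + Veh and at 49.6, 69.6, 57.7, 96.4 and 65.2 CPM in MD + PE. CD + PE held both the lowest and the highest liver of the study, and the within-group SD of 0.71 on the log2 scale was larger than that of 93.0% of genes. The fitted change was 0.72 (95% interval -0.05 to 1.49, adjusted p = 0.359, edgeR) in MD + PE against MD + Veh and -0.58 (-1.38 to 0.23, adjusted p = 0.344, edgeR) in MD + Veh against CD + Veh. The within-group correlation of Igfbp1 and Igfbp2 did not pass (r = -0.204, permutation p = 0.563, adjusted p = 0.675; rho = 0.040; r = 0.109 without the farthest 2).

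Igfbp2 (chr1:72863606-72891634, plus strand), a binding protein that liver secretes in quantity, was at 382, 347, 423 and 411 CPM in CD + Veh and at 317, 201, 333, 287 and 401 CPM in CD + PE. It was at 245, 222, 237, 241 and 245 CPM in MD + Veh and at 261, 193, 385, 278 and 293 CPM in MD + PE. All MD + Veh livers stood below all CD + Veh livers and close to each other (238 ± 9.79 CPM, SD, n = 5), whereas both PE groups were wide and overlapped their vehicle groups. Igfbp2 was lower in MD + Veh than in CD + Veh by a log2 change of -0.72 (SE 0.164, adjusted p = 0.00609, edgeR), to 0.609 of its level. With PE the change was -0.35 (SE 0.165) in CD, with an unadjusted p of 0.0493 and an adjusted p of 0.283 (edgeR), and 0.25 (SE 0.156, adjusted p = 0.486, edgeR) in MD. These PE changes differed by 0.59 (SE 0.227, unadjusted p = 0.0174), which did not pass adjustment (adjusted p = 0.443, edgeR). With the division of library numbers as a covariate the MD + Veh change was -0.74 (adjusted p = 0.0164, edgeR), and with the clock score it was -0.23 (adjusted p = 0.626, edgeR) and no longer called. Of the 7 hepatocyte markers, 2 (Alb and Apoa1) were called lower in MD + Veh, where their sum ranged from 50926 to 64386 CPM beside 73275 to 88521 CPM in CD + Veh, and the part of this in the Igfbp2 change was not tested.

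Igfbp4 (chr11:98932064-98945218, plus strand) encodes a binding protein that inhibits IGF action until it is cleaved. It was at 1183, 1119, 1169 and 1151 CPM in CD + Veh and at 1025, 721, 1104, 1112 and 1194 CPM in CD + PE. In MD it was at 989.7, 895, 1029.9, 1043 and 989 CPM with vehicle and at 921, 879, 981, 811 and 1084 CPM with PE. MD + Veh did not overlap CD + Veh, but the change of -0.22 (SE 0.113, 95% interval -0.46 to 0.01, adjusted p = 0.199, edgeR) was not called. In the CD + PE group the low value came from replicate 2, which was also lowest of its group for Igfbp2 and highest for Igfbp1 and Socs2 and carried the highest clock score.

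Over the 10 members the comparisons gave few calls. In CD + PE against CD + Veh 1 was called (Stat5a), 2 did not overlap (Stat5a and Stat5b) beside 7.83% of all genes, and the median log2 change was 0.22 against 0.01 over all genes. In MD + Veh against CD + Veh 2 were called (Stat5a higher and Igfbp2 lower) against a background of 10.4% of genes, 3 did not overlap (Stat5a, Igfbp2 and Igfbp4) beside 16.2% of genes, and the median change was -0.01. In MD + PE against MD + Veh 0 were called by edgeR or by DESeq2, 0 had an unadjusted p below 0.05 and 0 had groups without overlap, beside 1.08%, 15.7% and 3.57% of all genes. The interaction of PE and diet called 0 members by either tool, with 3 at an unadjusted p below 0.05 (Stat5a, Igfbp2 and Igf1), beside 0.00735% of genes called and 8.77% at that p.

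**Figure D4:**
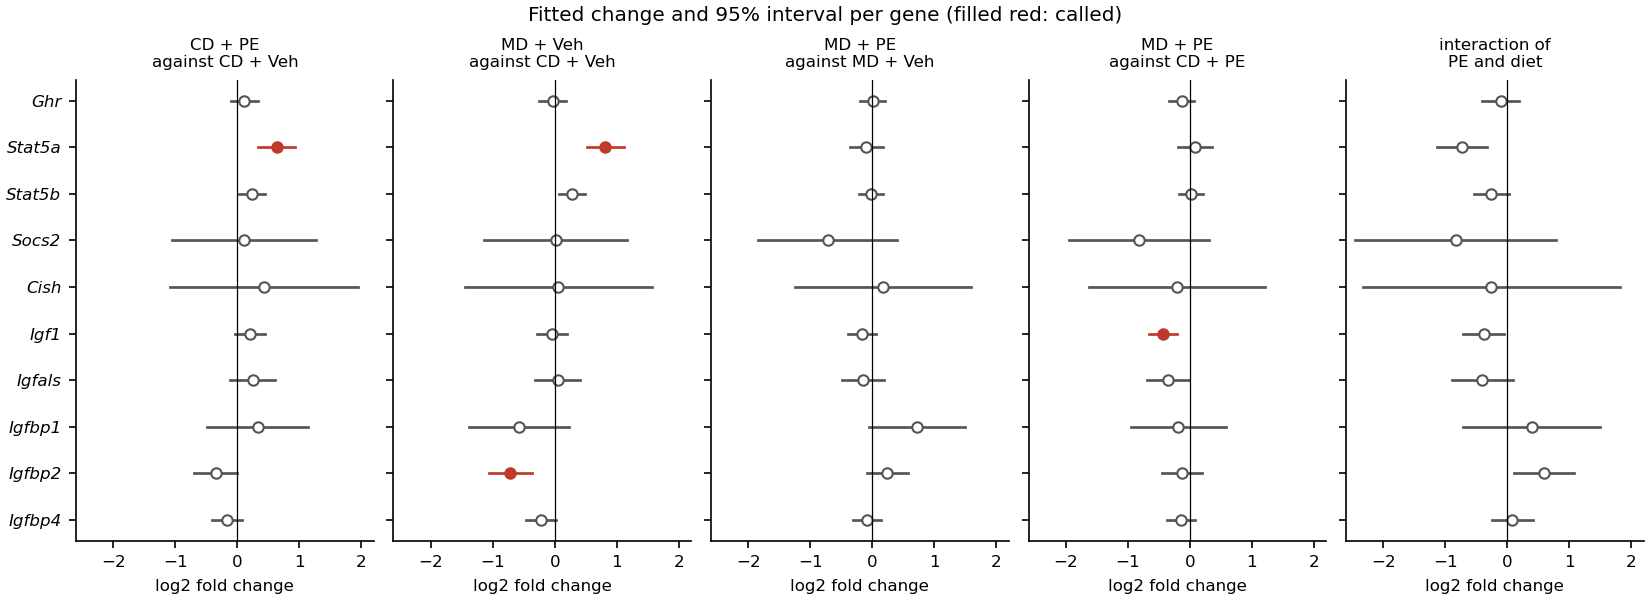
Fitted log2 fold change of each member (points) with its 95% interval (bars) in the 4 pairwise comparisons and the interaction of PE and diet, on a common x axis, called genes filled red. Filled points are Stat5a (CD + PE and MD + Veh, each against CD + Veh), Igfbp2 (MD + Veh) and Igf1 (MD + PE against CD + PE), and the intervals of Socs2 and Cish are the widest.

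Other genes of the axis were followed as a list of 26 partners, covering receptors, kinases, inhibitors, further binding proteins and insulin signalling, of which 22 were tested. Of these 22, 1 was called in CD + PE against CD + Veh, where 2.92% of all genes were called. In MD + Veh against CD + Veh 0 were called (10.4% of all genes), as in MD + PE against MD + Veh (1.08%), in MD + PE against CD + PE (4.61%) and in the interaction (0.00735%). Other settings called up to 2 in MD + Veh against CD + Veh, with a call in 5 of 30 fits. The median change of the list was 0.01 for PE in CD, 0.11 for MD under vehicle, -0.03 for PE in MD and -0.12 for MD under PE. The gene called in CD + PE was Prlr, which encodes the prolactin receptor, a cytokine receptor that signals through STAT5 as the growth hormone receptor does. Prlr was at 26.4, 43.3, 34.2 and 38.3 CPM in CD + Veh and at 72.0, 81.8, 107, 62.8 and 84.8 CPM in CD + PE, without overlap. It rose by 1.20 on the log2 scale (SE 0.198, adjusted p = 0.00249, edgeR), and with the division of library numbers as a covariate the change was 1.44 with an adjusted p of 0.0797 (edgeR). In MD, Prlr was at 50.4 ± 12.5 CPM with vehicle and 59.8 ± 11.8 CPM with PE (SD, n = 5 each), a change of 0.25 (adjusted p = 0.562, edgeR), and the PE changes of the diets differed by -0.96 (unadjusted p = 0.00195, adjusted p = 0.247, edgeR).

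Jak2, the kinase bound to the receptor, was at 17.8 ± 0.915 CPM in CD + Veh and 21.5 ± 1.48 CPM in CD + PE, a change of 0.27 with an adjusted p of 0.121 (edgeR). Socs3, an inhibitor induced by inflammatory cytokines, had a change of 0.70 in CD + PE (SE 0.502, adjusted p = 0.517, edgeR), with a wide spread in CD + PE (16.1 ± 18.0 CPM, SD, n = 5). Igfbp3, the partner of IGF-1 and the acid-labile subunit in blood, was at 18.5 ± 3.50 CPM in CD + Veh and 25.3 ± 6.26 CPM in MD + Veh, a change of 0.45 (adjusted p = 0.148, edgeR), which with the division of library numbers as a covariate was 0.65 and called (adjusted p = 0.0415, edgeR). Igf1r was low in all groups, with means between 2.96 and 4.29 CPM, and was called in no comparison. Igf2, a mainly fetal ligand, was not tested, with group means between 0.323 and 0.552 CPM, and neither were Cux2, Pappa and Stc2. Insr, the insulin receptor, had an adjusted p of 0.0350 (edgeR) in MD + Veh with a change of -0.29, under the fold used for a call, and was singled out after its values were seen.

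Liver genes that the sex-specific growth hormone pattern is known to bias formed the last lists, with 17 male-biased genes, all tested, and 21 female-biased genes, of which 11 were tested in these male livers. Of the male-biased genes, 1 was called higher in CD + PE (Elovl3) and 2 in MD + Veh (Elovl3 and Cyp4a12b), beside 2.92% and 10.4% of all genes called in either direction, 0 were called lower in any comparison, and the medians were 0.23 and -0.10. Elovl3, an enzyme of fatty acid elongation, was at 67.6, 107, 124 and 45.1 CPM in CD + Veh and at 194, 349.8, 189, 165 and 137 CPM in CD + PE. It was at 317, 281, 350.2, 298 and 233 CPM in MD + Veh and at 295, 212, 179.8, 108 and 159 CPM in MD + PE. All CD + PE and all MD + Veh livers stood above all CD + Veh livers, with changes of 1.26 (SE 0.307, adjusted p = 0.0261, edgeR) and 1.78 (SE 0.312, adjusted p = 0.000762, edgeR). With the clock score as a covariate these were 0.48 (adjusted p = 0.320, edgeR) and 0.75 (adjusted p = 0.168, edgeR), and neither was called. With the division of library numbers the change in CD + PE was 1.51 (adjusted p = 0.235, edgeR), and without CD + Veh replicate 1, CD + Veh replicate 4 or CD + PE replicate 2 it was 1.18, 1.07 or 0.99 (adjusted p = 0.0905, 0.0885 and 0.0554, edgeR). Cyp4a12b, a fatty acid hydroxylase, rose by 0.81 in MD + Veh (SE 0.260, adjusted p = 0.0437, edgeR), a call lost with either covariate, with the replicate number as a block (0.75, adjusted p = 0.0643) and in 8 of 19 fits that left out a library. Its close relative Cyp4a12a, which the paper lists as raised by PE in CD, was not called here in CD + PE by edgeR. The paper's list came from DESeq2, so the tests differ. It was at 208 ± 71.2 CPM in CD + Veh (SD, n = 4) and 351 ± 88.4 CPM in CD + PE (SD, n = 5). Other settings called 0 to 2 male-biased genes in that comparison. Reads may be divided uncertainly between Cyp4a12a and Cyp4a12b, and likewise among related Mup genes of this list. The sequence shared within these families was not measured.

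Of the 11 female-biased genes tested, 0 were called higher and 3 lower in MD + Veh against CD + Veh (median -0.83), 0 higher and 3 lower in MD + PE against CD + PE (median -0.20), and 0 with PE in either diet. Other settings called up to 1 with PE in CD and up to 2 with PE in MD, each in 1 of 30 fits. Of all genes tested, 10.4% and 4.61% were called in either direction in the comparisons of MD with CD, and 2.92% and 1.08% with PE in CD and in MD. The 3 genes were Cyp17a1, a steroid hydroxylase, Cyp2c40, a member of a cytochrome family with close copies, and Nipal1, a magnesium transporter. Cyp17a1 was at 29.9, 35.5, 26.0 and 72.7 CPM in CD + Veh and at 7.35, 12.9, 7.16, 8.82 and 6.72 CPM in MD + Veh, and fell by 2.25 on the log2 scale (SE 0.388, adjusted p = 0.000658, edgeR). It was at 9.13, 13.0, 29.0, 14.7 and 40.7 CPM in CD + PE and at 2.44, 5.14, 1.83, 4.39 and 3.77 CPM in MD + PE, and fell by 2.59 (SE 0.414, adjusted p = 0.000600, edgeR). In both treatments the MD livers stood below all CD livers. Cyp2c40 changed by -1.33 (SE 0.311, adjusted p = 0.00714, edgeR) and -1.62 (SE 0.306, adjusted p = 0.00263, edgeR) in the same comparisons, and Nipal1 by -2.02 (SE 0.637, adjusted p = 0.0403, edgeR) and -2.71 (SE 0.676, adjusted p = 0.0192, edgeR). In the fit with the clock score the MD + Veh changes of Cyp17a1, Cyp2c40 and Nipal1 were -1.54, -1.62 and -1.36, with adjusted p = 0.186, 0.0561 and 0.588 (edgeR), and the calls were lost, whereas the 3 calls in MD + PE against CD + PE were kept. The Nipal1 call in MD + Veh was also lost with the division of library numbers (-1.60, adjusted p = 0.137, edgeR) and in 7 of the 19 fits that left out a library. Without CD + PE replicate 5 or MD + PE replicate 5 the Nipal1 change in MD + PE against CD + PE was -2.29 or -2.58 (adjusted p = 0.0571 and 0.0503, edgeR).

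**Figure D5:**
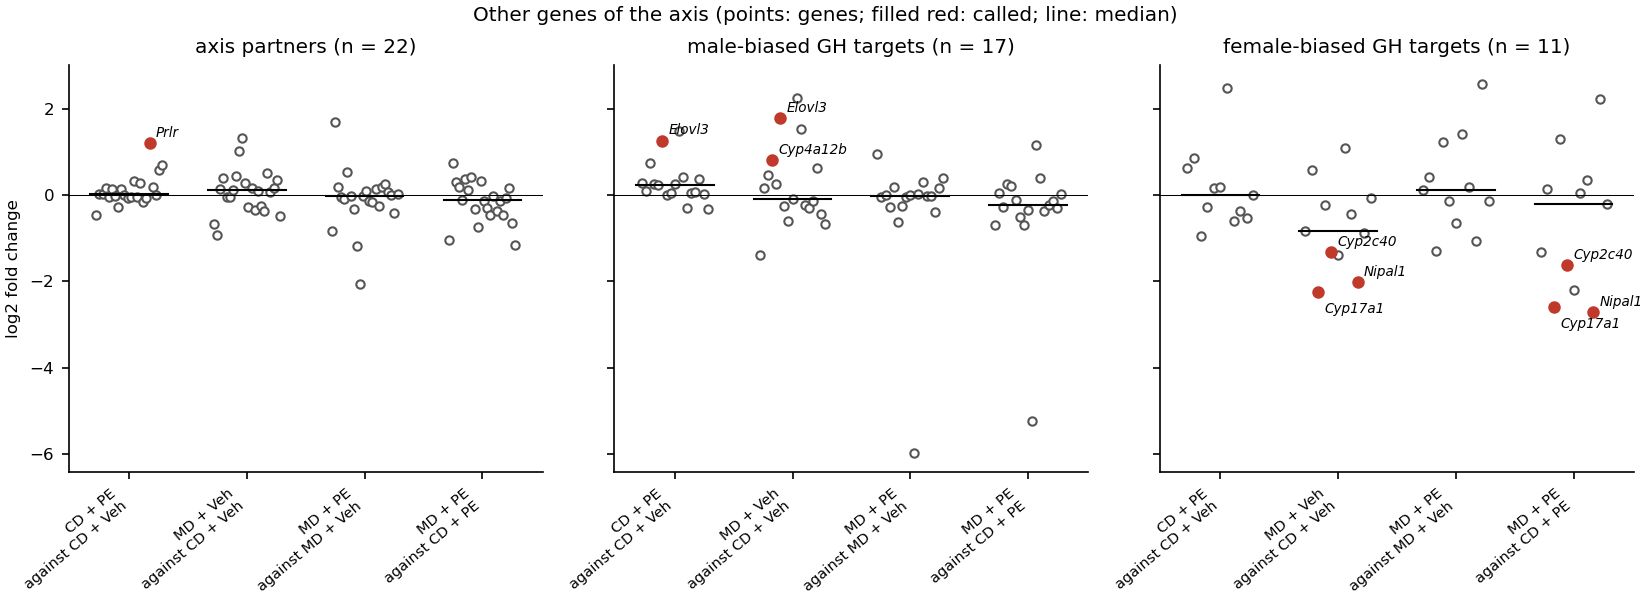
Log2 fold changes (y axis) of the tested axis partners (22), male-biased (17) and female-biased (11) growth hormone targets in the 4 pairwise comparisons (x axis), with 1 point per gene, called genes filled red and named, and the list median as a line. The called female-biased genes Cyp17a1, Cyp2c40 and Nipal1 lie below 0 in both comparisons of MD with CD, and most other genes of the 3 lists were not called.

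The genes whose log2 CPM over the 19 livers was most like that of each member are given as a description, since these libraries share groups, depth and library order. Ghr ran with Mup3 (Pearson's r = 0.921), a major urinary protein gene of the male-biased list, and with Sult2a8 (0.898), and Igfals also ran with Mup3 (0.831) and with Hagh (0.809). Igf1 was most like Susd4 (0.878) and Apof (0.863). Stat5a was most like Ldha (0.887), which encodes lactate dehydrogenase A, and Ypel2 (0.860), and Stat5b was most like Pacsin2 (0.801) and Slc25a48 (0.790). For the inhibitors the closest genes were Onecut1 (0.761) and Arhgap29 (0.738) for Socs2 and Gm10297 (0.839) and Foxa2 (0.788) for Cish. Onecut1 encodes the liver transcription factor HNF6 and stood on the partner list. The binding proteins were closest to Rasgef1b (0.812) and Trp53inp1 (0.799) for Igfbp1, to Ak4 (0.874) and 0610040J01Rik (0.861) for Igfbp2, and to Gch1 and Upp2 (0.894 each) for Igfbp4.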

How the data were processed

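Bulk liver RNA-seq of 19 mice was used, with groups taken from title and treatment label. Libraries were poly(A)-selected, stranded and read as paired 150-base reads. The authors trimmed reads with fastp 0.23.4, quantified them with Salmon 1.10.3 against GENCODE transcripts of GRCm39 (release not given in the sources used here) and summarized them per gene with tximport. The deposited values are the authors' estimated counts as whole numbers, neither normalized nor filtered. Within groups, at most 1.85% of genes held identical values in any of 36 pairs of libraries, so none was a copy.

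Counts were analysed with edgeR 4.0.16 (TMM, filterByExpr by group, 1 coefficient per group, quasi-likelihood F test, all 19 libraries in 1 fit), with SE as the size of a log2 fold change divided by the square root of F. DESeq2 1.42.0 in R 4.3.3 was an alternative. Correlations used log2 CPM (prior count 2), 100000 permutations within groups and SciPy 1.17.1. In a simulation, 200 genes were changed by 1.5 log2 units, of which edgeR recovered 88% for PE in CD, 87% for MD under vehicle, 91% for PE in MD, 93.5% for MD under PE and 76% for the interaction. The fitted changes of all members were smaller than 1.5. These shares therefore do not tell how often changes of the members' size would be called.

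The members, lists, tests and the division of library numbers were chosen with earlier results of these data known. Named were all members, called genes of the partner and target lists with Jak2, Socs3, Igf1r, Igf2 and Igfbp3, and the 2 genes most like each member. Insr was chosen after its values were seen. Gene positions are those of GENCODE vM39. Alternatives were RLE normalization, DESeq2, no or a stricter filter on low counts, no minimum fold, robust dispersion, only the 2 groups compared, thinned counts, the replicate number as a block, the division of library numbers or the clock score as a covariate, and each library left out. The labels share replicate numbers across groups, but the 27 pairs of same-numbered libraries had a median correlation of residuals of 0.0293, with 6 above 0.1, and mice were treated as unpaired.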

Additional observations from a re-analysis of the deposited data

Results flagged for a closer look

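Cish in CD + Veh replicate 2 stood at 31.7 CPM, while the nearest liver of its group was at 7.84 CPM. The gap was 0.854 of the range of the 4 livers, above Dixon's critical value of 0.829. Chance gives about 1 such value in 20 groups, and 40 combinations of member and group were screened. The same liver held the highest Socs2 level of its group, at 18.98 CPM. Without it the log2 change of Cish in CD + PE against CD + Veh was 1.61 instead of 0.43, with an adjusted p of 0.297 (edgeR), and was not called either way.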

How the results depend on the processing

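No result changed direction where a call had been made. With the division of library numbers as a covariate, and with the clock score, 0 members were called in CD + PE against CD + Veh (1 in the main fit), and with the clock score 0 in MD + Veh against CD + Veh (2 in the main fit). Over fits that left out a library the count was 0 to 1 in CD + PE against CD + Veh and in MD + PE against CD + PE. The within-group r of Socs2 and Cish was 0.545 to 0.797 when a library was left out, and that of Ghr and Igf1 was 0.516 with the division removed. Of the alternatives to these counts and correlations, 11 lost a call that the main setting had made and 270 did not. The Socs2 and Cish correlation was among the losses without CD + Veh replicate 2 (0.625) and without MD + Veh replicate 1 (0.545). The replicate block gave Stat5a a change of 0.63 in CD + PE (adjusted p = 0.0386, edgeR) and changed no call of a member, but lost Cyp4a12b in MD + Veh, and the numbers were not taken to pair the mice. Counts over all genes moved more than 1.5 times in several settings: in CD + PE from 397 to 37 with the division and 254 with the clock score, in MD + Veh from 1410 to 380 with the clock score, and in MD + PE against MD + Veh from 147 to 303 (DESeq2), 33 (division) and 73 (only those groups). The interaction went from 1 to 82 (DESeq2), 41 (block), 54 (division) and 0 (clock score), and MD + PE against CD + PE from 627 to 964 without a minimum fold. Leaving out a library gave 215 (CD + Veh replicate 4), 235 (CD + Veh replicate 1) or 240 (CD + PE replicate 3) genes in CD + PE against CD + Veh and 987 in MD + PE against CD + PE (CD + PE replicate 2). In MD + PE against MD + Veh it gave 56 (MD + PE replicate 3) to 243 (MD + Veh replicate 4), moving by over 1.5 times also without MD + Veh replicate 1 or 2 or MD + PE replicate 2 or 4, and the interaction ranged from 0 to 3. The cause was not tested. Socs2 and Cish, with 33 to 442 counts per library and a wide spread between mice, allow only large changes to be seen.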
